A study of Danio rerio with 10 samples.

Results

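The genes described here are lyz, mpx, lcp1 and coro1a, which mark neutrophils and other leukocytes of the zebrafish embryo. They were taken by symbol, with every record of each, which gave 4 of 14563 gene symbols and 5 of 15865 transcript records; mpx has 2 records. The data are polyadenylated RNA of zebrafish (Danio rerio) embryos of the TL strain aged 36 hours post fertilization (hpf),, sequenced as 10 libraries. Of these, 6 come from whole embryos, 30 pooled for each library, with 2 libraries in each of 3 groups: wild-type controls, offspring of TL fish, siblings (a pool of fn10a+/- and +/+ embryos) and fn10a-/- mutants, the latter groups both from crosses of fn10a heterozygotes. The other 4 libraries hold nuclear and cytoplasmic RNA of siblings (fn10a+/- and +/+) and of mutants (fn10a-/-), with 1 library for each fraction and genotype. The allele fn10a is labelled without its gene; as known from elsewhere, not from the labels, it is a mutation of eftud2, a GTPase gene of the U5 small nuclear ribonucleoprotein of the spliceosome. Nothing in the labels says whether the replicates came from separate clutches, so the p-values reflect only how far these libraries differ, and that spread may be technical.

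Leukocytes of the young zebrafish embryo are the first white blood cells of the primitive wave of blood formation, mostly macrophages and neutrophils, which arise from myeloid precursors and spread through the tissues. lyz encodes C-type lysozyme, an enzyme that cleaves the bacterial cell wall, and mpx encodes myeloperoxidase, the granule enzyme that makes hypochlorous acid. Both are products of the myeloid defence programme and are widely used in zebrafish to label neutrophils, lyz with some label in macrophages. lcp1 (L-plastin, an actin-bundling protein) and coro1a (coronin 1A, an actin-binding protein) belong to the leukocyte cytoskeleton, and in zebrafish serve as markers of all leukocytes.

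Reads on listed transcripts ranged from 34060890 to 82752349 in the whole-embryo libraries and from 7164408 to 19195327 in the fractions. The files of replicate 1 and replicate 2 were written in different formats. Of the authors' read total, 54.2% to 58.7% lay on listed transcripts in replicate 1, but 31.6% to 33.7% in replicate 2. Libraries with the same replicate number deviated together from their group means (r from 0.714 to 0.866 across 10147 genes, which are not independent replicates). Replicate number is therefore treated as a batch, though the labels do not say what it stands for. Each difference is given from a fit without a term for replicate number, the planned main one, and from a fit with it, planned as the second. eftud2 stood at 11.3 and 3.60 RPKM (reads scaled to transcript length and to the read total of the library) in mutant replicates 1 and 2, against 28.1 and 9.91 in siblings and 30.2 and 10.5 in controls, so it was lowest in the mutants within each replicate.

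On read counts scaled by TMM (CPM) all 4 genes were lower in mutants than in siblings and controls within both replicates. So were 37.9% of tested genes against siblings and 34.1% against controls. The differences were larger for lyz and mpx, the defence enzyme genes, than for lcp1 and coro1a, the cytoskeletal genes. This contrast between genes was not tested. In the fit with the replicate term lyz fell to 0.464 of its sibling level and 0.401 of its control level. mpx stood at 0.571 and 0.491 of those levels and did not pass the threshold. lcp1 and coro1a stood at 0.857 and 0.915 of the sibling level, neither past the threshold. In the fit without the term none of the 4 passed. In RNA of whole embryos, fewer cells of a type and less RNA per cell cannot be told apart.

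**Figure D1:**
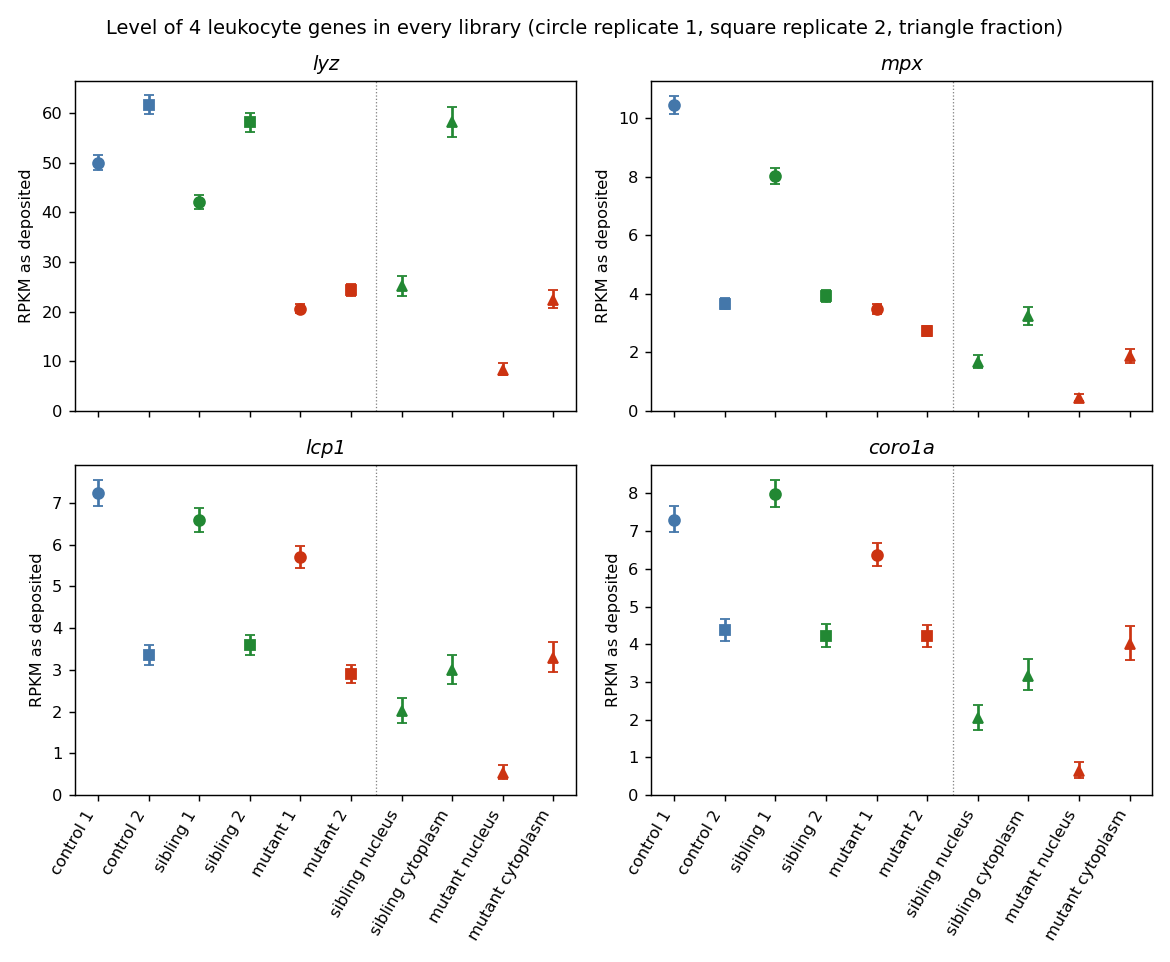
RPKM as deposited of lyz, mpx, lcp1 and coro1a in each of the 10 libraries, with exact Poisson 95% intervals of the read count, which cover counting error only. On RPKM lyz is lower in both mutant whole-embryo libraries (20.6 and 24.3 RPKM) than in all 4 sibling and control libraries (42.1 to 61.7 RPKM). The share of all genes with that pattern on RPKM was not computed. On this scale lcp1 and coro1a separate more by replicate than by genotype, and mpx in controls and siblings also differs by replicate. This contrast depends on the scale. On read counts scaled by TMM (CPM) lyz differs by replicate in every group, as in siblings (42.1 and 116.9). There lcp1 is lower in both mutant libraries (23.8 and 21.5) than in all 4 others.

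lyz (NM_139180; danRer7 chromosome 24, 24643811 to 24646731, minus strand, transcript of 586 bases) had the highest RPKM of the 4 genes in all 10 libraries. It stood at 49.98 and 61.7 RPKM in control replicates 1 and 2, at 42.1 and 58.1 in siblings, and at 20.6 and 24.3 in mutants. On RPKM both mutant libraries lay below all 4 others, a pattern whose share over all genes was not computed on that scale. On read counts scaled by TMM (CPM) they did not: lyz stood at 53.2 and 124.8 in controls, 42.1 and 116.9 in siblings and 22.5 and 47.2 in mutants, so that mutant replicate 2 exceeded sibling replicate 1. The group levels were 55.8 ± 8.26 RPKM in controls, 50.1 ± 11.3 in siblings and 22.5 ± 2.63 in mutants (SD, n = 2). Against siblings lyz fell by 1.11 on the log2 scale in the fit with the replicate term (SE 0.146; edgeR's quasi-likelihood test, adjusted p = 0.0409), with differences of -0.89 in replicate 1 and -1.30 in replicate 2. Against controls it fell by 1.32 (SE 0.147, adjusted p = 0.0212 in edgeR), with -1.22 and -1.39 in the replicates. Without the term the same log2 fold changes were -1.19 (SE 0.695, adjusted p = 0.9999 by edgeR) and -1.35 (SE 0.697, adjusted p = 0.843). Both comparisons share the mutant libraries and are not independent. Leaving out any 1 sibling or mutant library ended both calls, in fits that called few or no genes of any kind. The log2 fold change of lyz then ran from -1.27 to -0.94 against siblings and from -1.46 to -1.18 against controls. Without either control library both held, in fits that called 17.1% to 23.5% of all genes.

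mpx has its main record on chromosome 10 (NM_212779; danRer7, 6807373 to 6814454, minus strand, 3205 bases). It stood at 10.4 and 3.67 RPKM in controls, 8.02 and 3.92 in siblings and 3.48 and 2.72 in mutants, replicates 1 and 2 in that order. Both mutant libraries lay below all 4 others, on RPKM and on scaled counts (20.8 and 28.9 CPM, against 40.6 to 60.8). On RPKM, however, replicate 2 of controls and siblings (3.67 and 3.92) came close to mutant replicate 1 (3.48). The share of all genes with this pattern on RPKM was not computed. The group levels were 7.05 ± 4.79, 5.97 ± 2.89 and 3.10 ± 0.535 RPKM (SD, n = 2), and these SDs include the difference between replicate numbers. With the replicate term the log2 fold change was -0.81 against siblings (SE 0.263; edgeR, adjusted p = 0.163) and -1.03 against controls (SE 0.266, adjusted p = 0.0883). Within replicates it was -1.06 and -0.57 against siblings, and -1.53 and -0.48 against controls. Without the term its unadjusted p was 0.0458 against siblings and 0.0196 against controls, and its adjusted p 0.928 and 0.623. mpx passed against siblings with the term when either control library was left out (adjusted p = 0.0148 and 0.0153), in fits that called 22.0% and 21.4% of all genes. It passed against controls without control replicate 2 (0.0105), where 17.1% of all genes were called, and by DESeq2 with the term (0.00606), where 17% were. Without mutant replicate 1 its log2 fold change was -0.44 against siblings and -0.64 against controls, and -0.61 against controls without control replicate 1.

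lcp1 (NM_131320; danRer7 chromosome 9, 57977606 to 57985367, minus strand, 2239 bases) stood at 7.24 and 3.35 RPKM in controls, 6.59 and 3.59 in siblings and 5.70 and 2.90 in mutants. The mutant library was the lowest of its replicate number both times, but on RPKM the groups overlapped, since mutant replicate 1 exceeded replicate 2 of the others. On scaled counts they did not, with 23.8 and 21.5 CPM in mutants against 25.2 to 29.4 in the other 4 libraries. With the replicate term the log2 fold change was -0.22 against siblings (SE 0.150, adjusted p = 0.421 by edgeR) and -0.29 against controls (SE 0.150, adjusted p = 0.270).

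coro1a (NM_201114; danRer7 chromosome 3, 31077475 to 31092408, minus strand, 1748 bases) stood at 7.30 and 4.37 RPKM in controls, 7.99 and 4.22 in siblings and 6.37 and 4.22 in mutants. In replicate 1 the counting interval of mutants (6.07 to 6.69 RPKM) lay below those of controls (6.97 to 7.66) and siblings (7.64 to 8.35). In replicate 2 the 3 groups lay within each other's counting intervals (mutants 3.92 to 4.52 RPKM, siblings 3.94 to 4.52, controls 4.07 to 4.67). The log2 fold change with the term was -0.13 against siblings (SE 0.136, adjusted p = 0.610 by edgeR) and -0.13 against controls (SE 0.136, adjusted p = 0.551). A p that misses the threshold does not show that lcp1 and coro1a were the same in the groups. The last 19 bases of the coro1a record overlap cldni, a claudin gene on the other strand with 14385 to 22299 reads in whole embryos, against 778 to 1968 for coro1a.

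By mean level the order in controls was lyz, mpx, coro1a and lcp1, with coro1a at 5.84 ± 2.08 and lcp1 at 5.29 ± 2.75 RPKM (SD, n = 2). lyz stood above the other 3 by more than the spread between replicates in each group. mpx, coro1a and lcp1 overlapped in controls and siblings. In mutants coro1a (5.29 ± 1.53) and lcp1 (4.30 ± 1.98) had higher means than mpx (3.10 ± 0.535). Both coro1a libraries lay above both mpx libraries there, while those of lcp1 and mpx overlapped.

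**Figure D2:**
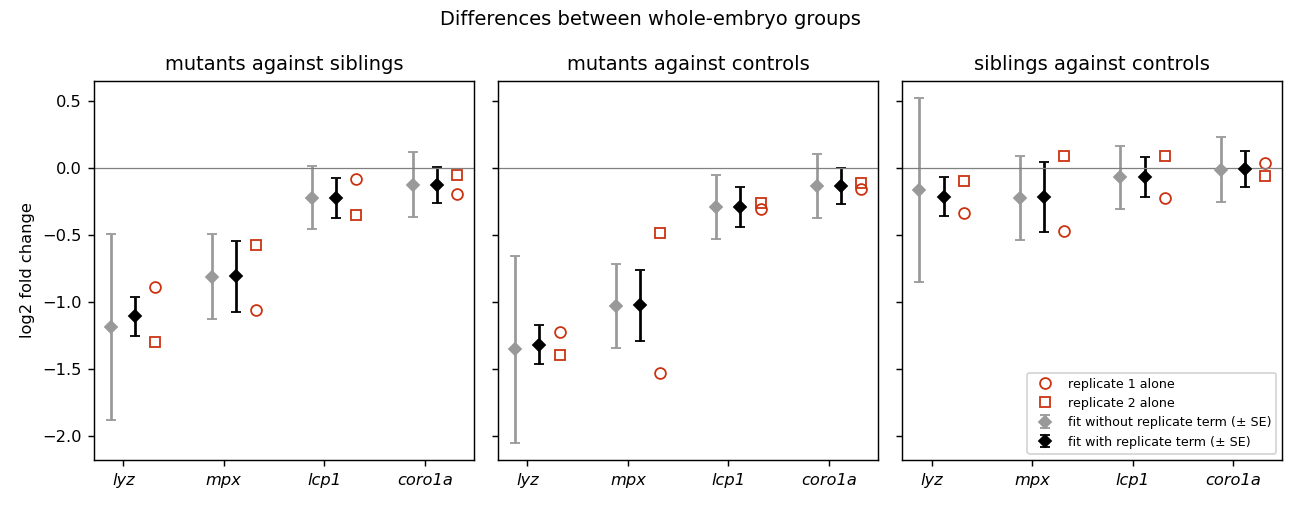
log2 fold changes of the 4 genes in the 3 comparisons of whole-embryo groups: grey and black diamonds are the fits without and with the replicate term, with bars of 1 SE, and open symbols are replicate 1 and replicate 2 alone. lyz and mpx lie below 0 in both replicates for mutants against either other group, with lyz at -0.89 and -1.30 against siblings, while coro1a stays between -0.20 and -0.05.

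Counted over the 4 genes, 1 was called lower in mutants than in siblings with the replicate term, where 1.74% of all 10147 genes were called in either direction, 0.581% as lower and 1.16% as higher. Against controls 1 of the 4 was called lower, where 3.48% of genes were called in either direction, 1.57% as lower and 1.91% as higher. Without the term 0 of the 4 were called, and 0% of all genes (0 genes; 534 and 667 at an unadjusted p under 0.05 against siblings and controls by edgeR, and 149 and 194 called by DESeq2). On scaled counts both mutant libraries lay below both sibling libraries for 2 of the 4 genes (mpx and lcp1), as for 17.1% of tested genes, and below both control libraries for 3 of the 4 (all but coro1a), as for 16% of tested genes. All 4 genes lay below 0 within both replicates in both comparisons, as did 37.9% of tested genes against siblings and 34.1% against controls.

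Siblings and controls differ in parentage and in the fn10a+/- embryos among the siblings, and neither group was labelled as holding fn10a-/- embryos. lyz had a log2 fold change of -0.21 in siblings against controls with the term (SE 0.144, adjusted p = 0.662 by edgeR), mpx of -0.22 (SE 0.260, adjusted p = 0.791), lcp1 of -0.07 (SE 0.150) and coro1a of -0.01 (SE 0.135). The replicates were in opposite directions for mpx (-0.47 and 0.09), lcp1 (-0.22 and 0.09) and coro1a (0.04 and -0.06). None of the 4 was called, where 0% of genes were called with or without the term by edgeR (878 and 100 at an unadjusted p under 0.05, and 98 and 12 called by DESeq2, the former being 0.966% of genes). None of the 4 had both sibling libraries below both control libraries on scaled counts, as 8.93% of genes did; lyz alone was lower in siblings within both replicates (-0.33 and -0.09), as were 28.6% of genes.

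A ratio of 2 genes within a library does not depend on how libraries are scaled. For each read of coro1a there were 2.29 and 4.74 reads of lyz in controls, 1.77 and 4.61 in siblings and 1.08 and 1.93 in mutants, replicates 1 and 2. The ratio was lowest in the mutants within each replicate, and higher in replicate 2 than in replicate 1 of every group. For mpx the ratio to coro1a was 2.62 and 1.54 in controls, 1.84 and 1.70 in siblings and 1.001 and 1.18 in mutants, so that both mutant libraries lay below all others. lcp1 per read of coro1a stayed between 0.880 and 1.27 in all 6 libraries, with the groups overlapping. The difference in response between genes was not tested.

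**Figure D3:**
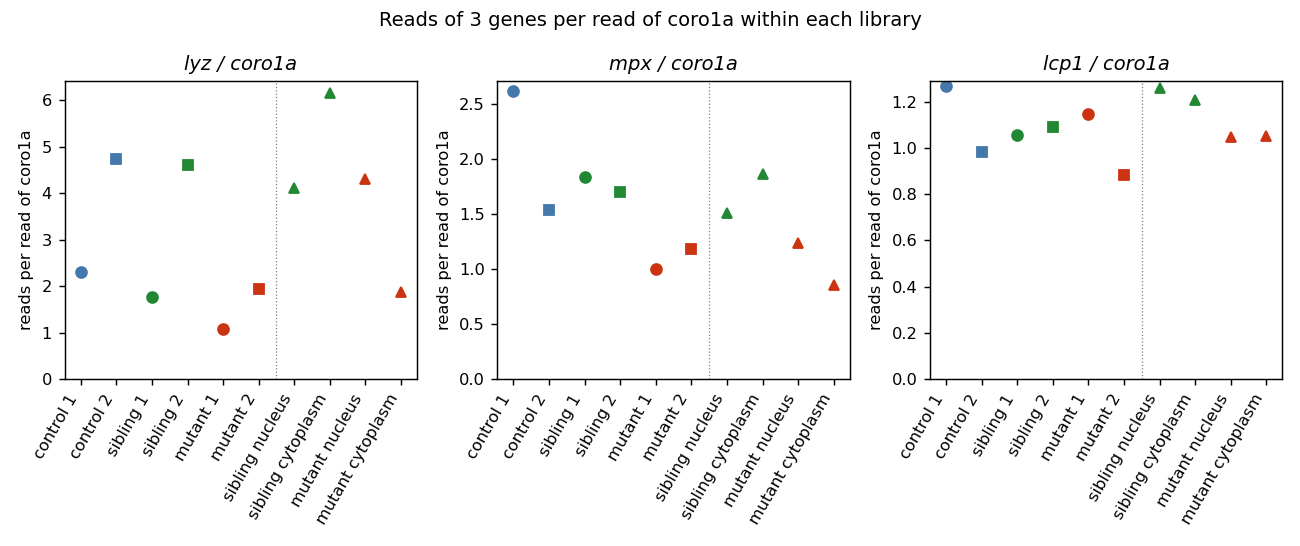
Reads of lyz, mpx and lcp1 per read of coro1a within each library, for whole embryos (circles replicate 1, squares replicate 2) and fractions (triangles). The mutant whole-embryo libraries are the lowest of their replicate for lyz (1.08 and 1.93) and for mpx, while lcp1 stays near 1 read per read of coro1a in every library; in the nuclear libraries lyz per coro1a is 4.12 in siblings and 4.31 in mutants.

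The nuclear and cytoplasmic libraries give the same genes in separate preparations, with 1 library each and therefore no replicate check. In cytoplasm lyz stood at 58.2 RPKM in siblings and 22.4 in mutants, a ratio of 0.385 (95% interval 0.350 to 0.424, exact, counting error only). mpx stood at 3.23 RPKM in sibling and 1.86 in mutant cytoplasm, a ratio of 0.578 (0.495 to 0.673). lcp1 and coro1a were not lower there: lcp1 stood at 2.99 and 3.29 RPKM (ratio 1.101, interval 0.938 to 1.29) and coro1a at 3.17 and 4.02 (ratio 1.27, interval 1.07 to 1.51). The median gene of the 8631 genes with a mean of 1 RPKM or more in the fractions differed by a log2 of 0.020 between mutant and sibling cytoplasm.

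In nuclei all 4 genes were lower in the mutant library: lyz stood at 25.1 RPKM in siblings and 8.29 in mutants, mpx at 1.69 and 0.435, lcp1 at 2.01 and 0.527, and coro1a at 2.05 and 0.645. The ratios ran from 0.258 for mpx to 0.329 for lyz. The mutant nuclear library was the shallowest, with 42 to 52 reads for mpx, lcp1 and coro1a. Of the authors' read total, by which RPKM is scaled, 19.2% lay on listed transcripts in it, against 33.5% in the sibling nuclear library. In sibling and mutant cytoplasm this share was 41.7% and 41.8%. The median gene of the mutant nuclear library was lower too, by a log2 of -0.84 on log2(RPKM + 1). On that scale lyz differed by -1.49, mpx by -0.90, lcp1 by -0.98 and coro1a by -0.89. The place of these low genes against the median depends on the pseudocount. At a pseudocount of 0.1 the differences were -1.59 for lyz, -1.74 for mpx, -1.75 for lcp1 and -1.53 for coro1a, where the median gene stood at -1.14. With CPM centred on the median gene they were -0.41, -0.68, -0.65 and -0.40 in the same order.

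All 4 genes had a lower RPKM in the nucleus than in the cytoplasm in both genotypes. In siblings the nuclear to cytoplasmic ratio was 0.432 for lyz (95% interval 0.393 to 0.475), 0.522 for mpx, 0.673 for lcp1 and 0.646 for coro1a (0.523 to 0.796). On log2(RPKM + 1) lyz stood at -1.18 in siblings against -0.22 for the median gene, and 5.63% of genes were lower still. In mutants the ratio was 0.369 for lyz, 0.234 for mpx and 0.160 for both lcp1 and coro1a. The share of reads on listed transcripts was 19.2% in mutant nuclei and 41.8% in mutant cytoplasm, which enters these RPKM ratios. On log2(RPKM + 1) the median gene stood at -1.06, lyz at -1.34, lcp1 at -1.49 and coro1a at -1.61, with 34.1%, 26.6% and 21.5% of genes below them. mpx stood at -0.997, above the median gene, with 53.9% of genes below it. At a pseudocount of 0.1 mpx was below the median gene (-1.88 against -1.42), and lyz lay at it (-1.43).

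The second mpx record does not follow the first. It carries the same accession, NM_212779, at danRer7 chromosome 18, 4984911 to 4985532 (minus strand, 622 bases without an intron), and all 622 bases lie within the record of cyp1a (NM_131879, 4974676 to 4985563, plus strand), a cytochrome P450 gene of the response to foreign compounds. It had 0 reads in all 3 replicate 1 libraries, which at a floor of 3 reads allows up to 0.0335 to 0.0354 RPKM, and 109, 424 and 464 reads in replicate 2 of controls, siblings and mutants. Only 3 of 15865 records had 0 reads throughout replicate 1 and at least 50 in every replicate 2 library. cyp1a itself had 850, 3669 and 3903 reads in those replicate 2 libraries, so the second mpx record held 0.128, 0.116 and 0.119 reads per read of cyp1a. In the fractions, whose libraries were unstranded per the labels, that ratio ran from 0.207 to 0.484. Reads of mpx and of cyp1a cannot be told apart at this place where counting ignored strand, and the sources used here do not say how strand was treated. Levels of mpx above therefore come from the chromosome 10 record alone.

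**Figure D4:**
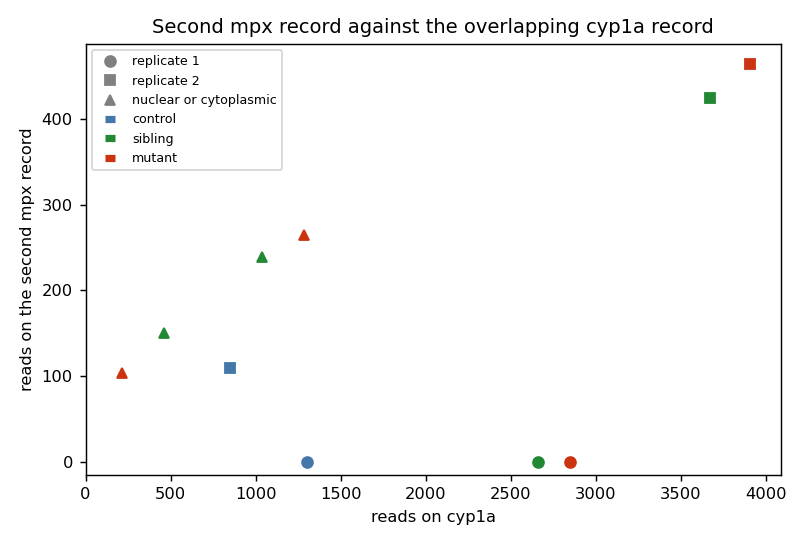
Reads on the second mpx record against reads on the cyp1a record that contains it, one point per library. The 3 replicate 1 libraries lie at 0 whatever the cyp1a count (1302 to 2845 reads), whereas replicate 2 rises from 109 to 464 reads with cyp1a.

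Other leukocyte genes were taken from 5 lists of neutrophil effectors, macrophage genes, leukocyte actin and adhesion genes, leukocyte signalling genes and blood transcription factors. Of 61 genes found in the files 28 passed the filter of a mean of 1 RPKM. Against siblings with the replicate term 0 of these 28 passed the threshold by edgeR, where 1.74% of all genes did. By DESeq2 with the term 4 did, where 11.8% of all genes were called. In the edgeR fit 14 of the 28 lay below 0. The median log2 fold change of the 28 was -0.01, beside -0.001 over all genes tested. Against controls 1 of the 28 rose and 27 did not pass, where 3.48% of all genes were called in either direction. There 15 lay below 0, with a median of -0.13 beside -0.01 over all genes.

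Of the 5 tested neutrophil effector genes, mmp9, which encodes the gelatinase released by neutrophils and other cells, rose against controls (log2 fold change 1.29, SE 0.184, adjusted p = 0.0364 in edgeR with the term). It stood at 1.24 and 0.914 RPKM in controls, 1.29 and 1.02 in siblings and 2.57 and 2.68 in mutants. Both mutant libraries thus lay above the other 4, a pattern whose share over all genes was not computed. Against siblings mmp9 stood at 1.23 (SE 0.183, adjusted p = 0.0509 in edgeR). With the term mmp9 passed against siblings under RLE scaling, the authors' totals, no filter or limma (adjusted p from 0.0459 to 0.0494, edgeR or limma). It also passed by DESeq2 (adjusted p = 1.33e-05). Those fits called 1.52% to 11.8% of all genes. It missed in edgeR with listed totals (adjusted p = 0.0551) and all records (0.0521). The call against controls ended when any 1 sibling or mutant library was left out, in fits that called few genes of any kind. The log2 fold change of mmp9 then ran from 1.14 to 1.45. npsn, the gene of nephrosin, a neutrophil metalloprotease in zebrafish, and mfap4, a macrophage marker in zebrafish, were picked after their values were seen. npsn stood at 20.7 and 6.29 RPKM in controls, 15.7 and 8.76 in siblings and 5.503 and 5.76 in mutants (log2 fold change against siblings -0.97, SE 0.394, adjusted p = 0.226 in edgeR with the term). mfap4 stood at 7.02 and 9.28 RPKM in controls, 7.99 and 4.82 in siblings and 3.54 and 2.50 in mutants (-1.03, SE 0.304, adjusted p = 0.141). For both, each mutant library lay below all 4 others, on RPKM and on scaled counts, by a small margin for npsn. On scaled counts 17.1% of tested genes had both mutant libraries below both sibling libraries, and 16% below both control libraries. The remaining tested neutrophil effector genes, srgn, cyba and lect2l, stood at log2 fold changes of 0.03, -0.32 and 0.08 against siblings with the term. Of the macrophage list, mpeg1 stood at -0.53 and csf1ra at 0.007.

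The most abundant macrophage list genes stood at log2 fold changes against siblings of -0.13 for apoeb (apolipoprotein E, also made by other cells such as the yolk syncytial layer), 0.42 for ctssb.1 (a cathepsin) and 0.34 for lgmn (legumain, a lysosomal protease), none past the threshold. Of the actin and adhesion genes, rac2, the GTPase of the leukocyte oxidase and of migration, stood at 0.04, hcls1, an actin regulator of blood cells, at 0.13, and arpc1b, a subunit of the Arp2/3 complex, at -0.49 (SE 0.121, adjusted p = 0.107 in edgeR with the term). Of the signalling genes the chemokine gene cxcl12a stood at 0.35, its receptor gene cxcr4b at -0.11 and the Fc receptor adaptor gene fcer1gl at 0.43. Of 9 transcription factor genes tested, cebpd, cebpb and cebpa, of the C/EBP family that drives granulocyte genes, stood at 0.48, 0.61 and -0.25, all short of the threshold. spi1b, the gene of the myeloid master factor Pu.1, stood at 0.29.

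**Figure D5:**
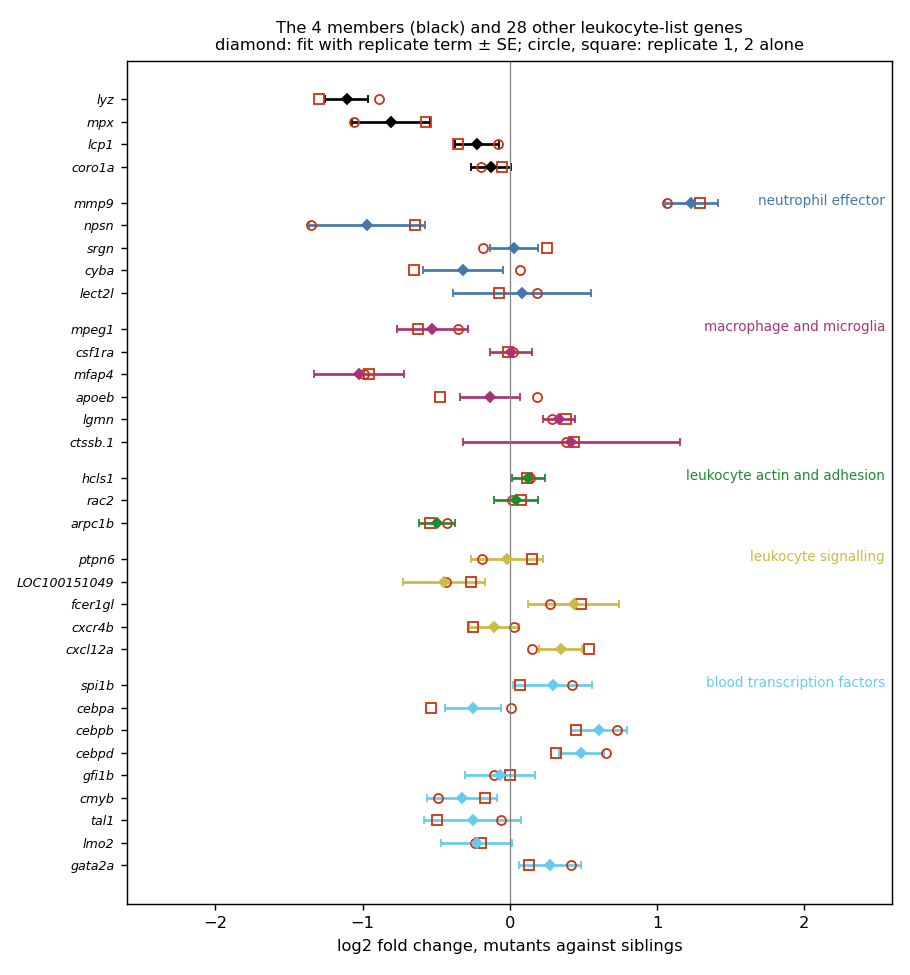
log2 fold change of mutants against siblings for the 4 genes (black) and 28 tested genes of 5 other leukocyte lists, with diamonds and bars for the fit with the replicate term and its SE, and open circles and squares for replicates 1 and 2 alone. LOC100151049 carries the accession of laptm5. The list genes spread on both sides of 0, from -1.03 (mfap4) to 1.23 (mmp9). In this edgeR fit, which called 1.74% of all genes, lyz is the only one of the 32 past the threshold (adjusted p = 0.0409). By the same test mmp9 narrowly missed it (adjusted p = 0.0509), and passed in some other settings.

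Relatives of the 4 genes with other expression were measured for comparison. pls3, the plastin gene outside leukocytes, stood at 44.3 to 71.2 RPKM in whole embryos, with log2 0.18 against siblings (SE 0.134), and pls1 was below the filter. The coronin genes coro1b, coro1ca, coro2a, coro6 and coro7 stood at log2 -0.24, 0.12, 0.44, 0.40 and -0.16. lygl1, a goose-type lysozyme gene, stood at -0.13 (SE 0.341). None of the 7 tested relatives passed the threshold in either comparison.

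Other blood and vessel cell lists were read beside these values. Of 11 erythroid genes tested 10 lay below 0 against siblings with the term (median log2 -0.31, beside -0.001 over all genes). Within both replicates 7 lay below 0, as did 37.9% of tested genes. With the term 1 passed (znfl2a, an erythroid zinc finger gene, lower), where 1.74% of all genes were called, 0.581% as lower. Against controls 7 of the 11 lay below 0 (median log2 -0.16, beside -0.01 over all genes). Within both replicates 5 did, as did 34.1% of tested genes. None passed there, where 3.48% of all genes were called. The summed RPKM of the 11 was 4818 and 6340 in mutants, 9541 and 12067 in siblings and 5781 and 13408 in controls. The globin genes hbae1, hbae3, hbbe1.1 and hbbe3 had the highest scaled counts of the 11. Of the non-globin genes, gata1a differed from siblings by log2 -0.21 and -0.05 within replicates 1 and 2. In that order alas2 stood at -0.07 and 0.04, slc4a1a at -0.14 and 0.05, and epb41b at -0.55 and 0.002. klfd stood at -0.16 and 0.28, and znfl2a at -1.01 and -1.06. Of 8 endothelial genes 2 lay below 0 against siblings (median log2 0.16) and 5 against controls (median log2 -0.06), with none past the threshold. cpa5, the carboxypeptidase gene of mast cells, stood at 2.76 and 0.759 RPKM in controls, 1.34 and 0.996 in siblings and 0.376 and 0.639 in mutants (log2 -1.11 against siblings, SE 0.612, adjusted p = 0.336 in edgeR with the term). Of 4 xanthophore genes, a list that shares csf1ra with the macrophage list, 2 lay below 0 against siblings (median -0.21). Against controls 3 did (median -0.36). Of the lymphoid list 1 of 6 genes passed the filter (log2 -0.07), and of 4 thrombocyte genes none did. The part of these cell types in the difference of lyz was not tested.

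Genes with the most similar pattern were found by the Pearson r of log2 CPM (read counts scaled to library size) over the 6 whole-embryo libraries, after the mean of each replicate number was removed. For lyz they were ssu72, ephb3a and eng1b (r of 0.999, 0.999 and 0.998), for mpx sp3a, rpl10a and ctbp1 (0.998 each), for lcp1 cratb, srek1 and adnp2a (0.997, 0.995 and 0.995) and for coro1a rab5c, mnd1 and arl8 (0.998, 0.996 and 0.990). With 6 libraries of which 2 are the mutants such values are common: 971 of 10146 other genes (9.57%) reached 0.9 with lyz, 557 with mpx, 343 with lcp1 and 291 with coro1a. Among the 4 genes r ran from 0.573 (lcp1 with coro1a) to 0.919 (lyz with lcp1).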

How the data were processed

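Each deposited file holds 1 library. Whole-embryo libraries were strand-specific (dUTP) from Trizol RNA, and fraction libraries unstranded from RNA of the PARIS kit, per the labels' protocols. TopHat2 2.0.8 and danRer7 are named in the submitters' processing notes, without a counting tool. Each of 15865 RefSeq records has, per the file headers, a read count, not normalized, and an RPKM. The authors' RPKM uses 1 read total per file that exceeds the listed reads. Starts were written 1-based, as in replicate 1.

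For each symbol the record with most reads entered the fit. Genes averaging at least 1 RPKM (10147) were tested with edgeR 4.0.16 (R 4.3.3; TMM, glmQLFit, glmQLFTest, Benjamini-Hochberg, threshold 0.05) in 1 fit of 6 libraries. The planned main fit had no replicate term (3 residual degrees of freedom). The fit with the term (2) was planned as the second, and is used because file format and listed share differ by replicate number. SEs came from the fold change and F. Within-replicate differences are of TMM-scaled CPM. In simulated counts for mutants against siblings with 10147 genes, 100 were changed 2-fold and 100 changed 4-fold. Without the term 0% were recovered. With it 45% of 2-fold and 96% of 4-fold changes were, with 14 false calls. The simulated counts were drawn with a replicate effect and with the spread of the fit that has the term. They therefore favour that fit from the outset and do not show which fit suits these data.

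Members and lists were chosen with earlier results of these data known. The rule for named genes took the members, all relatives, and 3 genes per member by r. Of each list it was planned to take genes past the threshold in any fit or else the 3 most abundant. It was applied to the edgeR fits without and with the replicate term only. List genes called only in other settings are therefore not all named. Outside the rule lie npsn, srgn, cyba, lect2l, mfap4, mpeg1, csf1ra, cpa5, spi1b and znfl2a. The other erythroid genes named also lie outside it. Symbols were matched directly or through the accessions of the RefSeq gene table (13871 of 14563 symbols had one). Alternatives were the replicate term, scalings, filters, all records, DESeq2 1.42.0, limma 3.58.1 on log2(RPKM + 1), only the groups compared, and leaving out each library. Intervals are exact 95% Poisson or binomial and cover counting error only.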

Additional observations from a re-analysis of the deposited data

Results flagged for a closer look

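For lcp1 the mutant over sibling ratio of RPKM was 0.262 in nuclei and 1.101 in cytoplasm, and for coro1a it was 0.315 in nuclei and 1.27 in cytoplasm. These directions are opposite in the 2 fractions, but the cytoplasmic interval of lcp1 (0.938 to 1.29, counting error only) includes a ratio of 1. The median gene differed by a log2 of 0.020 in cytoplasm, on log2(RPKM + 1). With 1 library per fraction and genotype the difference was not tested. The mutant nuclear library was the shallowest, with 7164408 listed reads. On log2(RPKM + 1) the median gene differed by -0.84 between mutant and sibling nuclei, lcp1 by -0.98 and coro1a by -0.89. On that scale 41.2% of genes lay below lcp1 and 46.9% below coro1a. The place of both genes against the median depends on the pseudocount. With CPM centred on the median gene lcp1 stood at -0.65 and coro1a at -0.40.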

How the results depend on the processing

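lyz was lower in mutants than in siblings and in controls in every setting run. It passed the threshold in all 9 settings with the replicate block on 6 libraries (log2 fold change from -1.14 to -1.09 against siblings, and from -1.38 to -1.27 against controls) and in none of the 11 without it. The settings without the block called at most 0.00986% of all genes, except DESeq2 (1.47% against siblings and 1.91% against controls). The pairing by number rests on the file formats and on deviations that correlate (0.714 to 0.866). With the block 1 of the 4 genes (of 3 tested at the filter of 5 RPKM) was called in each of these 9 settings against siblings. Those fits called 1.52% to 11.8% of all genes. Against controls it was 1 in 8 settings and 2 under DESeq2, where mpx was added, in fits that called 2.79% to 17.0% of all genes. Leaving out 1 library gave 0 to 2 called genes in both comparisons with the block, in fits that called 0% to 22.0% of all genes against siblings and 0.0690% to 23.5% against controls, and 0 without it; lyz without the block then ran from -1.83 to -0.27 against siblings and from -1.98 to -0.60 against controls. Against siblings 0 of the other leukocyte genes were called with the block, 1 under RLE scaling, the authors' totals, limma or no filter, 4 under DESeq2 (11.8% of all genes called), and 0 to 8 with 1 library left out (8 where 22.0% of all genes were). Against controls the count was 1 with the block, also with RLE scaling, listed totals, the authors' totals, no filter or all records, 2 under limma, 4 under DESeq2 (17% of all genes), and 0 to 7 with 1 library left out (7 where 17.1% were). For siblings against controls it was 1 under DESeq2 with the block (0.966% of all genes) and 0 to 3 with 1 library left out (3 where 4.05% were).

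The small differences between siblings and controls changed sign in places, none past the threshold. coro1a stood at 0.0198 with listed totals, at 0.0659 with the authors' totals, and at 0.0379 and 0.0406 with limma at pseudocounts of 1 and 0.1. With the block these were 0.0197, 0.0441 and 0.0379 (pseudocount 1), and 0.0016 without a filter. With 1 library left out, lyz ran from -1.08 to 0.58 without the block, mpx from -0.47 to 0.10 and, with the block, from -0.58 to 0.22, lcp1 from -0.149 to 0.0278 and from -0.214 to 0.0808, and coro1a from -0.0996 to 0.0937 and from -0.0692 to 0.0524. Within these ranges, with the block, lcp1 turned to 0.0233 without control replicate 1, and coro1a to 0.0138 without control replicate 2 and 0.00647 without mutant replicate 2. The nuclear over cytoplasmic value of lyz in mutants was 0.0312 when CPM were centred on the median gene. The cause of these changes was not tested. lcp1 gave no value at a filter of 5 RPKM. Each group has 2 libraries, and 3 of the genes had 42 to 52 reads in mutant nuclei, which limits the precision.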
